A study of Homo sapiens with 10 samples.

Results

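The genes described here are 10 transcription factors known for their part in the epithelial to mesenchymal transition (EMT): ZEB1, ZEB2, SNAI1 (Snail), SNAI2 (Slug), TWIST1, TWIST2, TCF4, FOXC1, FOXC2 and PRRX1. They were chosen by name as the core and minor EMT factors, with earlier results of these data known, so the counts below describe these factors and no more. Each had 1 row among the 23170 genes of the deposited tables. Of the 10, 6 had a mean level of at least 0.5 FPKM (fragment counts scaled to transcript length and to library depth) over the 4 lines of the study: ZEB1, SNAI1, SNAI2, TWIST1, TCF4 and FOXC1. The other 4 factors, ZEB2, TWIST2, PRRX1 and FOXC2, were close to 0 in every line.

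The 4 lines all derive from the human prostate cancer line PC3, grown from a bone metastasis, and were profiled by RNA-seq. PC3-Epi (2 samples) is an epithelial population selected from luciferase-positive PC3 cells by its light signal and its morphology. PC3-EMT14 (3 samples) is a mesenchymal population, one of several that were isolated after PC3-Epi cells had been grown with macrophages. The OVOL lines are that mesenchymal population after transduction with a lentiviral construct for the zinc-finger factor OVOL1 (PC3-EMT14-OVOL1, 3 samples) or OVOL2 (PC3-EMT14-OVOL2, 2 samples), and so they share the luciferase vector and the co-culture history of PC3-EMT14. Each line is 1 derived population, so its samples are not independent derivations. For both OVOL lines the comparator was the parental PC3-EMT14 population, so transduction and the introduced gene cannot be told apart. The deposited values are 1 FPKM per group and comparison, combined by the authors over the samples of the group. There is therefore no spread between samples, no replicate check and no test for any difference below, and the depth is unknown. In such bulk values, fewer cells that express a factor and less of its RNA per cell cannot be told apart.

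EMT factors are DNA-binding proteins that switch off genes of epithelial junctions and polarity, and some of them also activate mesenchymal genes. The ZEB and SNAI proteins are zinc-finger repressors that bind E-boxes, short DNA elements of the form CANNTG, of which CAGGTG is a preferred one, and they recruit corepressors such as the CTBP proteins. TWIST1, TWIST2 and TCF4 are basic helix-loop-helix (bHLH) proteins that bind E-boxes as dimers, FOXC1 and FOXC2 are forkhead factors, and PRRX1 is a homeobox factor. OVOL1 and OVOL2 are zinc-finger factors of epithelia, and the OVO family recognises a core of CCGTTA.

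Promoter sequences show where such elements lie beside the factors. In RefSeq (GRCh38.p14), 6 of the 10 factors had a promoter entry, with 7 starts for ZEB1, 10 for TCF4 and 1 each for ZEB2, FOXC1, TWIST2 and PRRX1. No entry was given for SNAI1, SNAI2, TWIST1 and FOXC2. The 250 bases before each start were searched on both strands for CAGGTG (a special case of CANNTG), for CCGTTA and for the longer OVOL consensus, both of which contain GTTA. The first, CAGGTG, was found in 2 of the 7 ZEB1 windows and in none of the 10 TCF4 windows, against 17.5% of the 35116 RefSeq windows of the same length. CCGTTA was found in 1 ZEB1 window and in no other window of the 6 factors, against 2.45% of all windows, and the OVOL consensus in 1 TCF4 window alone, against 0.877%. The printed windows, written 5′ to 3′ on the strand of the gene with these elements in capitals, are the 3 ZEB1 windows that hold one, since ZEB1 differed most between the lines, the TCF4 window that holds one, and the windows of ZEB2, the paralog of ZEB1, and FOXC1, the factor that differed least, which hold none.
ZEB1 window a (chr10:31318167-31318416, plus strand): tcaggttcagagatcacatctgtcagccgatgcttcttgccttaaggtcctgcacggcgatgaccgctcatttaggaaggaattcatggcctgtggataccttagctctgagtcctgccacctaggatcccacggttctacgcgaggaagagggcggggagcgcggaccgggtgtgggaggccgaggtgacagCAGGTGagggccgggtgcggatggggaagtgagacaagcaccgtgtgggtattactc
ZEB1 window b (chr10:31318966-31319215, plus strand): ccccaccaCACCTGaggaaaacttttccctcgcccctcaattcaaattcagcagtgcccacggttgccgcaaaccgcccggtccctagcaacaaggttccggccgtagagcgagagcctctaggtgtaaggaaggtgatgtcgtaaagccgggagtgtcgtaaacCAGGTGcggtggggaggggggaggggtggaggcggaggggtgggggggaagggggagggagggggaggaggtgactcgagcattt
ZEB1 window c (chr10:31319518-31319767, plus strand): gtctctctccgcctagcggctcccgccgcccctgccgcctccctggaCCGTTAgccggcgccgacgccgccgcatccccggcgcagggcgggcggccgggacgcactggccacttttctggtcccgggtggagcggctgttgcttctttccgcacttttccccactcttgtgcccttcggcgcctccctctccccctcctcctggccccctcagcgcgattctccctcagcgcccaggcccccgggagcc
TCF4 window (chr18:55320936-55321185, minus strand): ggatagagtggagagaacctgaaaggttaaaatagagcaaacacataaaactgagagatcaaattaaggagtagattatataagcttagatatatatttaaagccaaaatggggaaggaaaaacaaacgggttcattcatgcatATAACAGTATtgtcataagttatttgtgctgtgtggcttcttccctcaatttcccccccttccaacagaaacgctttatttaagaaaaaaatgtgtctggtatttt
ZEB2 window (chr2:144520120-144520369, minus strand): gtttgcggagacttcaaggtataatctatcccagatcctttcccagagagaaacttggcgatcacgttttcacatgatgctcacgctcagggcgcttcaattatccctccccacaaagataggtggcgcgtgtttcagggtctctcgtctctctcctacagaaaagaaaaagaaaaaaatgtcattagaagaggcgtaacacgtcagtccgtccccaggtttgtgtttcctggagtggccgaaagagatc
FOXC1 window (chr6:1609665-1609914, plus strand): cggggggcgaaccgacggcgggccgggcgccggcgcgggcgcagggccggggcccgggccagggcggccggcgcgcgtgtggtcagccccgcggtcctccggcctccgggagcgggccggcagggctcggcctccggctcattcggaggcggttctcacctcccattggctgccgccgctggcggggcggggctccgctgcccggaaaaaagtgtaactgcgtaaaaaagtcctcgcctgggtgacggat
In ZEB1 window a the CAGGTG element begins 57 bases before the start. In window b, elements begin 242 bases (as CACCTG, the other strand) and 85 bases before it. The CCGTTA of window c begins 203 bases before its start, and the OVOL consensus of TCF4 begins 106 bases before its start, on the other strand. FOXC1 holds no CANNTG in its window, and ZEB2 holds 1. These matches describe letters and were not tied to binding here, and the deposited isoforms could not be assigned to these starts. The paper did measure OVOL2 binding at the ZEB1 promoter by chromatin immunoprecipitation, which recovers DNA held by a protein. OVOL2-expressing cells showed enrichment over control cells at an amplicon whose primers both match window c. Its forward primer ends on the CCGTTA, and the paper places the binding at a consensus site upstream of that primer.

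The labels were first checked against the 2 introduced genes. OVOL1 was at 0.0239 FPKM in PC3-EMT14, 11.2 in the OVOL1 line, 0.0700 in the OVOL2 line and 4.25 in PC3-Epi. OVOL2 was at 0.376, 0.559, 831 and 9.91 FPKM in the same order, so the OVOL2 line carried far more transcript of its gene than the OVOL1 line or PC3-Epi did. The defining markers of other cell types were low. The 6 for macrophages (PTPRC, CD14, CSF1R, CD163, SPI1 and TYROBP) reached at most 0.0921 FPKM in any line, with TYROBP listed at 0 in 3 lines. Of the 15 macrophage genes listed, 12 to 14 were under 0.1. The summed level of those 15 genes was 14.5 FPKM in PC3-Epi and 51.4 to 58.3 in the other lines, of which CD68, a lysosomal gene not restricted to macrophages, made up 13.2 FPKM and 51.0 to 57.8 FPKM. Of the 4 defining fibroblast markers, PDGFRA was at 0.393 FPKM in PC3-EMT14 and at 0.0537 to 0.0661 in the other lines. LUM reached at most 0.305 FPKM, PDGFRB 0.117 and DCN 0.00908. The 10 fibroblast genes listed summed to between 3.00 and 5.41 FPKM, of which COL1A1 made up 2.31 to 3.69 and ACTA2 0.349 to 1.06. The part of these genes in the results below was not tested. The keratins KRT8 and KRT18 were at 86.1 FPKM or more in every line and KLK3 at 0.

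**Figure D1:**
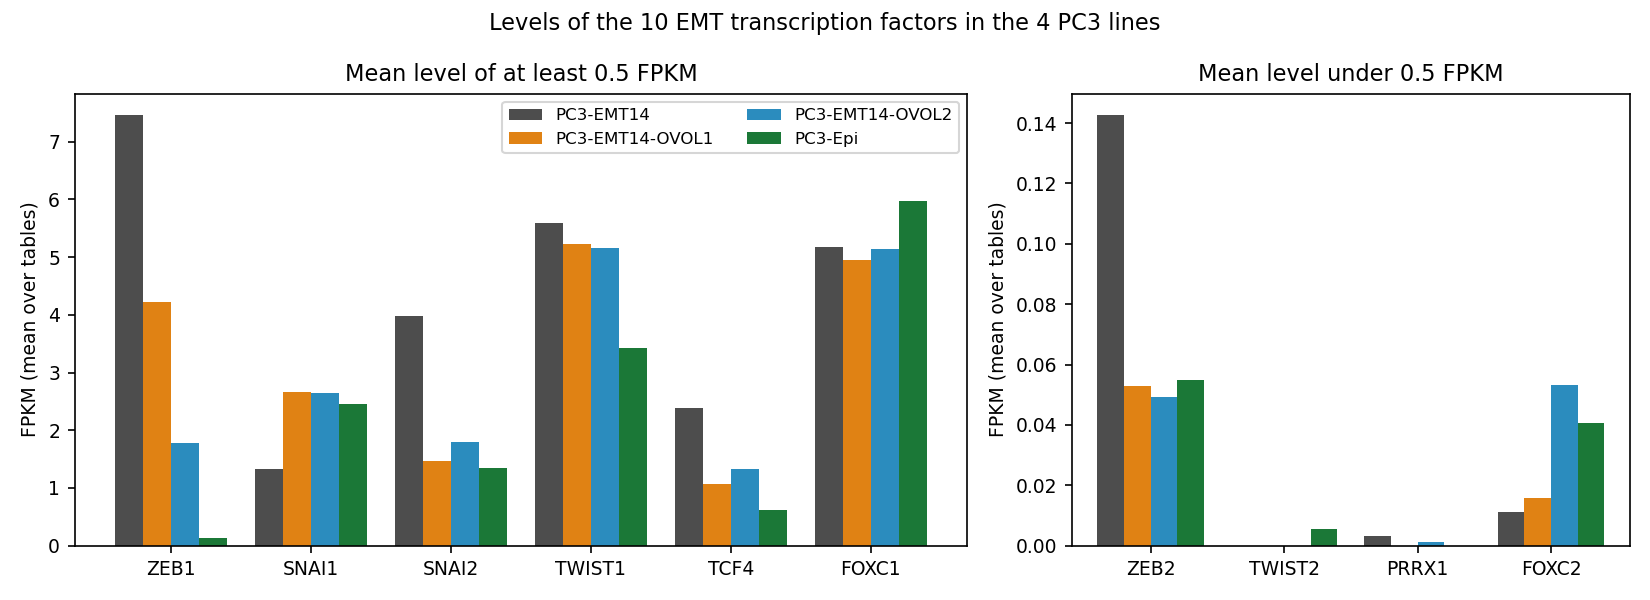
Level of each factor in FPKM (y axis, from 0) in the 4 lines, as the mean of the authors' pooled values over the tables that hold a line; the left panel shows the 6 factors above 0.5 FPKM and the right panel, on its own axis, the 4 below. ZEB1 was the highest factor in PC3-EMT14 at 7.46 FPKM and the lowest of the 6 in PC3-Epi at 0.130, while SNAI1 was lowest in PC3-EMT14.

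The mesenchymal line expressed a mixture of factors rather than 1. In PC3-EMT14 the order of levels per transcript length was ZEB1 (7.46 FPKM), TWIST1 (5.59), FOXC1 (5.17), SNAI2 (3.98), TCF4 (2.39) and SNAI1 (1.32). These levels are moderate among all genes, those at 0 included: ZEB1 was at or above 67.7% of them in that line, and SNAI1 at or above 50.1%. Among genes with a mean of at least 0.5 FPKM, the median in PC3-EMT14 was 9.86 FPKM, above each of these factors. In PC3-Epi the order was FOXC1 (5.97 FPKM), TWIST1 (3.42), SNAI1 (2.46), SNAI2 (1.35), TCF4 (0.624) and ZEB1 (0.130), so the epithelial line kept 4 of the 10 factors above 1 FPKM, SNAI1 among them. With no spread to set them against, neighbours in these orders cannot be said to differ. Levels set across lines here join tables that were normalized separately: the same PC3-EMT14 libraries gave values that differed by a near-constant factor, with a median ratio between 0.969 and 1.01 from table to table.

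The summed FPKM of the 10 factors was 26.1 in PC3-EMT14, 19.7 in the OVOL1 line, 17.9 in the OVOL2 line and 14.0 in PC3-Epi. ZEB1 made up 28.6% of that sum in PC3-EMT14, 21.5% in the OVOL1 line, 9.87% in the OVOL2 line and 0.923% in PC3-Epi. The share of FOXC1 ran the other way, from 19.8% in PC3-EMT14 to 42.5% in PC3-Epi, although its own level differed little.

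Each comparison was read by a fold rule: a ratio of FPKM values of at least 2 or at most 0.5, among the 12998 genes with a mean level of at least 0.5 FPKM. The question behind the first comparison is what forced OVOL1 does to the mesenchymal program. With OVOL1, SNAI2 and TCF4 were lower by more than 2-fold and SNAI1 was higher, while ZEB1, TWIST1 and FOXC1 stayed within 2-fold. That is 2 of 6 factors lower, against 1.61% of all genes, and 1 of 6 higher, against 2.93%. The median log2 ratio was -0.44 over the 6 factors and -0.00 over all genes, and the median size of the ratio, without its sign, was 0.91 against 0.16.

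With OVOL2, ZEB1 and SNAI2 were lower by more than 2-fold and SNAI1 was again higher. That is 2 of 6 lower, against 2.89% of all genes, and 1 of 6 higher, against 4.8%. The median log2 ratio was -0.46 against -0.04 over all genes, with a median size of 0.92 against 0.21. In PC3-Epi against PC3-EMT14, which compares the epithelial population with the mesenchymal line derived from it, ZEB1, SNAI2 and TCF4 were lower and none was higher: 3 of 6 against 8.62% of all genes, and 0 of 6 against 7.11%. Here the median log2 ratio was -1.16 against -0.02, with a median size of 1.23 against 0.36. These 3 comparisons share the PC3-EMT14 libraries, so a value of PC3-EMT14 that is off would move all 3 in the same direction.

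Between the OVOL lines, ZEB1 alone was past 2-fold, lower in the OVOL2 line. That is 1 of 6 lower, against 1.24% of all genes, and 0 of 6 higher, against 2.08%. The median log2 ratio of the 6 factors was 0.03 and that of all genes -0.04. These lines differ in more than the introduced protein. The introduced gene was at 831 FPKM in the OVOL2 line and 11.2 in the OVOL1 line, and the paper describes different constructs. Protein, transcript level and construct therefore cannot be told apart.

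**Figure D2:**
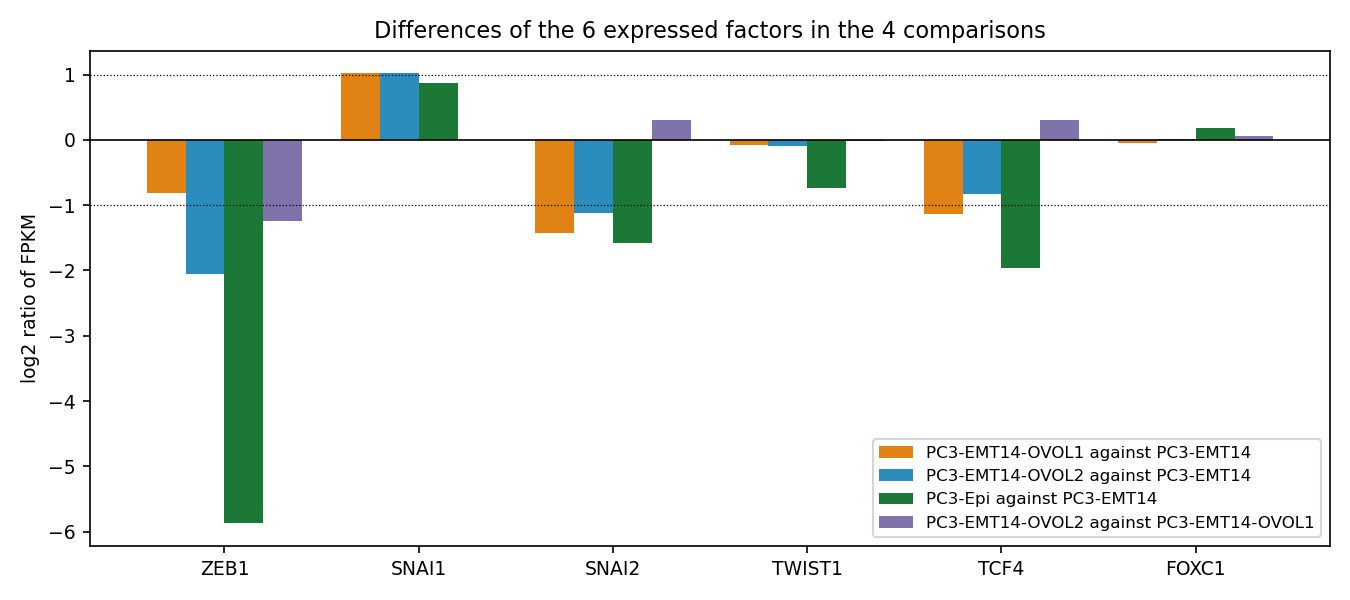
Log2 ratio of FPKM (y axis) of the 6 expressed factors in the 4 comparisons (bars, 1 pooled value against 1 pooled value, without error bars because none can be given); dotted lines mark 2-fold. ZEB1 reaches -5.87 in PC3-Epi, SNAI1 lies above 0 in all 3 comparisons with PC3-EMT14, and TWIST1 and FOXC1 lie near 0 in both OVOL lines.

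ZEB1 (XLOC_002305, hg19 chr10:31608101-31818742, plus strand) is the E-box repressor most tied to loss of E-cadherin. Its FPKM was 7.43 in PC3-EMT14 and 4.25 in the OVOL1 line in the first table, 7.36 and 1.77 in the OVOL2 table, and 7.59 and 0.130 in the PC3-Epi table. The 4 lines thus stood in a graded order, PC3-EMT14, OVOL1 line, OVOL2 line and PC3-Epi, and the OVOL2 line kept more ZEB1 than PC3-Epi did. The log2 ratios were -0.81, -2.05 and -5.87. A lower ratio was held by 341 of the 12998 genes under OVOL1, by 97 under OVOL2 and by 89 in PC3-Epi, which is 2.62%, 0.746% and 0.685% of them. In the table that holds both OVOL lines it was at 4.21 FPKM with OVOL1 and 1.77 with OVOL2, a log2 ratio of -1.25.

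The deposited isoform values place nearly all ZEB1 signal in 2 of 6 transcript entries. TCONS_00003790 was at 4.17 FPKM in PC3-EMT14, 2.41 in the OVOL1 line and 0.684 in the OVOL2 line. TCONS_00003791 was at 3.29, 1.82 and 1.09 FPKM in the same lines. The share of TCONS_00003790 was thus 55.9% in PC3-EMT14, 57.0% in the OVOL1 line and 38.6% in the OVOL2 line. In PC3-Epi the 0.130 FPKM that remained was assigned to another entry, TCONS_00003788, which was at 0 in the other lines. Isoform values are estimates that divide shared reads, so a share at such a level carries little weight.

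ZEB2 (XLOC_012530, hg19 chr2:145141942-145277958, minus strand), the paralog of ZEB1, was never a main factor here. Its FPKM was 0.142 in PC3-EMT14 and 0.0531 with OVOL1, 0.141 and 0.0492 with OVOL2, and 0.145 and 0.0548 in PC3-Epi, all under the level floor. Its isoform values split by line: TCONS_00020271 was at 0.127 FPKM in PC3-EMT14 and at 8.7e-06 or less elsewhere, while TCONS_00020270 was at 0.00192 FPKM in PC3-EMT14 and at 0.0446 to 0.0523 in the other 3 lines. No fold is read from values this low.

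**Figure D3:**
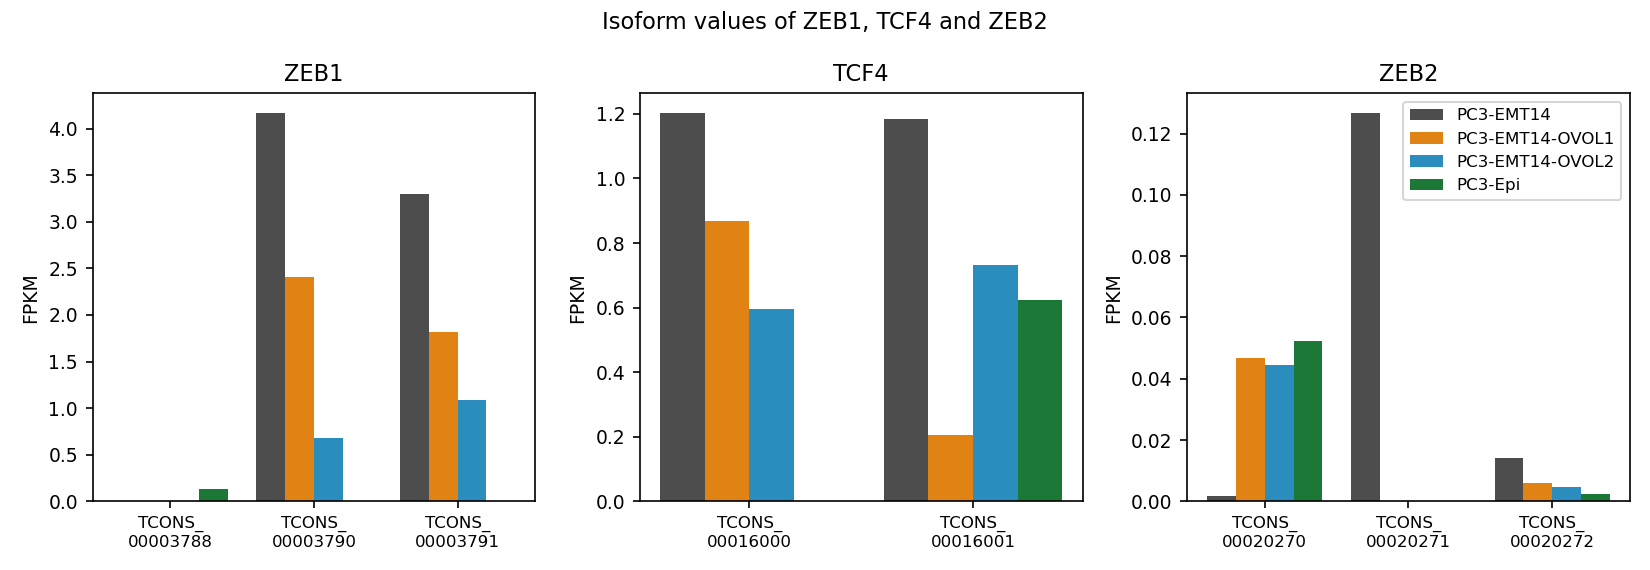
FPKM (y axis, from 0, a separate scale per panel) of the transcript entries of ZEB1, TCF4 and ZEB2 above 0.001 FPKM in any line, 1 pooled bar per line. Both main ZEB1 entries step down from PC3-EMT14 over the OVOL1 line to the OVOL2 line, while the TCF4 entries differ in which OVOL line is lower.

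The SNAI pair differed in opposite directions. SNAI2 (XLOC_020923, hg19 chr8:49830239-49833988, minus strand), the Slug repressor of migrating neural crest and basal epithelial cells, was at 3.96 FPKM in PC3-EMT14 and 1.47 in the OVOL1 line, at 3.92 and 1.80 in the OVOL2 table, and at 4.05 and 1.35 in the PC3-Epi table. In RNA both OVOL lines therefore lay close to PC3-Epi and under 2 FPKM. The paper also found less Slug RNA by qPCR with OVOL, but its immunoblot showed no change of Slug protein. The log2 ratios were -1.43, -1.12 and -1.59, and 117 of 12998 genes had a lower ratio under OVOL1, 303 under OVOL2 and 605 in PC3-Epi. Between the OVOL lines SNAI2 was at 1.45 FPKM with OVOL1 and 1.80 with OVOL2, a log2 ratio of 0.31.

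SNAI1 (XLOC_013041, hg19 chr20:48599513-48605420, plus strand), the Snail repressor of E-cadherin and a common early EMT factor, was lowest in the mesenchymal line. PC3-EMT14 had 1.32 FPKM against 2.67 with OVOL1, 1.30 against 2.65 with OVOL2, and 1.35 against 2.46 in PC3-Epi. The other 3 lines lay between 2.46 and 2.66 FPKM on the mean over tables. The log2 ratios were 1.02, 1.02 and 0.87, so the first 2 are just past 2-fold (2.03-fold each) and the PC3-Epi value is short of it (1.83-fold). More genes had a higher ratio in PC3-Epi (1143) than with OVOL1 (369) or OVOL2 (607). Between the OVOL lines SNAI1 did not separate, at 2.64 FPKM in each.

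The bHLH factors did not share a pattern. TWIST1 (XLOC_019947, hg19 chr7:19155091-19157295, minus strand), a mesoderm and cranial mesenchyme regulator, was at 5.57 FPKM in PC3-EMT14 and 5.26 with OVOL1, and at 5.51 and 5.15 with OVOL2. Those log2 ratios, -0.08 and -0.10, lie in the middle of all genes, of which 35.9% and 41.5% had a lower ratio. In PC3-Epi it was at 3.42 FPKM against 5.69, a log2 ratio of -0.74, within 2-fold. TWIST2 (XLOC_012120, hg19 chr2:239756673-239795893, plus strand) was listed at 0 in PC3-EMT14 and both OVOL lines and at 0.00553 FPKM in PC3-Epi.

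TCF4 (XLOC_009849, hg19 chr18:52889562-53255860, minus strand), also called E2-2, is an E-protein and a dimer partner of other bHLH factors. PC3-EMT14 had 2.38 FPKM against 1.08 with OVOL1, 2.35 against 1.33 with OVOL2, and 2.43 against 0.624 in PC3-Epi. PC3-Epi had the lowest level and the OVOL lines lay between. The log2 ratios were -1.14, -0.82 and -1.96, so the OVOL1 value is past 2-fold and the OVOL2 value (1.77-fold) is not, but the OVOL lines themselves, at 1.07 and 1.33 FPKM in their own table, differed by a log2 ratio of 0.31.

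The 2 transcript entries of TCF4 gave a different picture from the gene. TCONS_00016000 was at 1.20 FPKM in PC3-EMT14, 0.870 in the OVOL1 line, 0.596 in the OVOL2 line and 2.1e-05 in PC3-Epi. TCONS_00016001 was at 1.18, 0.207, 0.733 and 0.624 FPKM. The first entry therefore held 50.4% of the gene in PC3-EMT14, 80.8% in the OVOL1 line, 44.9% in the OVOL2 line and 0.0033% in PC3-Epi. By these estimates the 2 OVOL lines, close in total TCF4, were low in different entries, and the entry that PC3-Epi retained was the one lowest in the OVOL1 line. Outside PC3-EMT14 the entries were at 0.870 FPKM or less, as pooled values that divide shared reads, so these shares also carry little weight.

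The forkhead and homeobox factors were within 2-fold or near 0. FOXC1 (XLOC_017093, hg19 chr6:1610681-1614129, plus strand), a mesenchyme and eye regulator also found in some epithelial tumours, was at 5.15 FPKM in PC3-EMT14 and 4.98 with OVOL1, at 5.10 and 5.14 with OVOL2, and at 5.26 and 5.97 in PC3-Epi. The log2 ratios of -0.05, 0.01 and 0.18 were near those of a typical gene. FOXC2 (XLOC_007839, hg19 chr16:86600857-86602537, plus strand) was at 0.0110 FPKM in PC3-EMT14, 0.0159 in the OVOL1 line, 0.0533 in the OVOL2 line and 0.0405 in PC3-Epi. PRRX1 (XLOC_000841, hg19 chr1:170633313-170708541, plus strand) was at 0.00317 FPKM in PC3-EMT14, listed at 0 in the OVOL1 line and PC3-Epi, and at 0.0013 in the OVOL2 line.

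**Figure D4:**
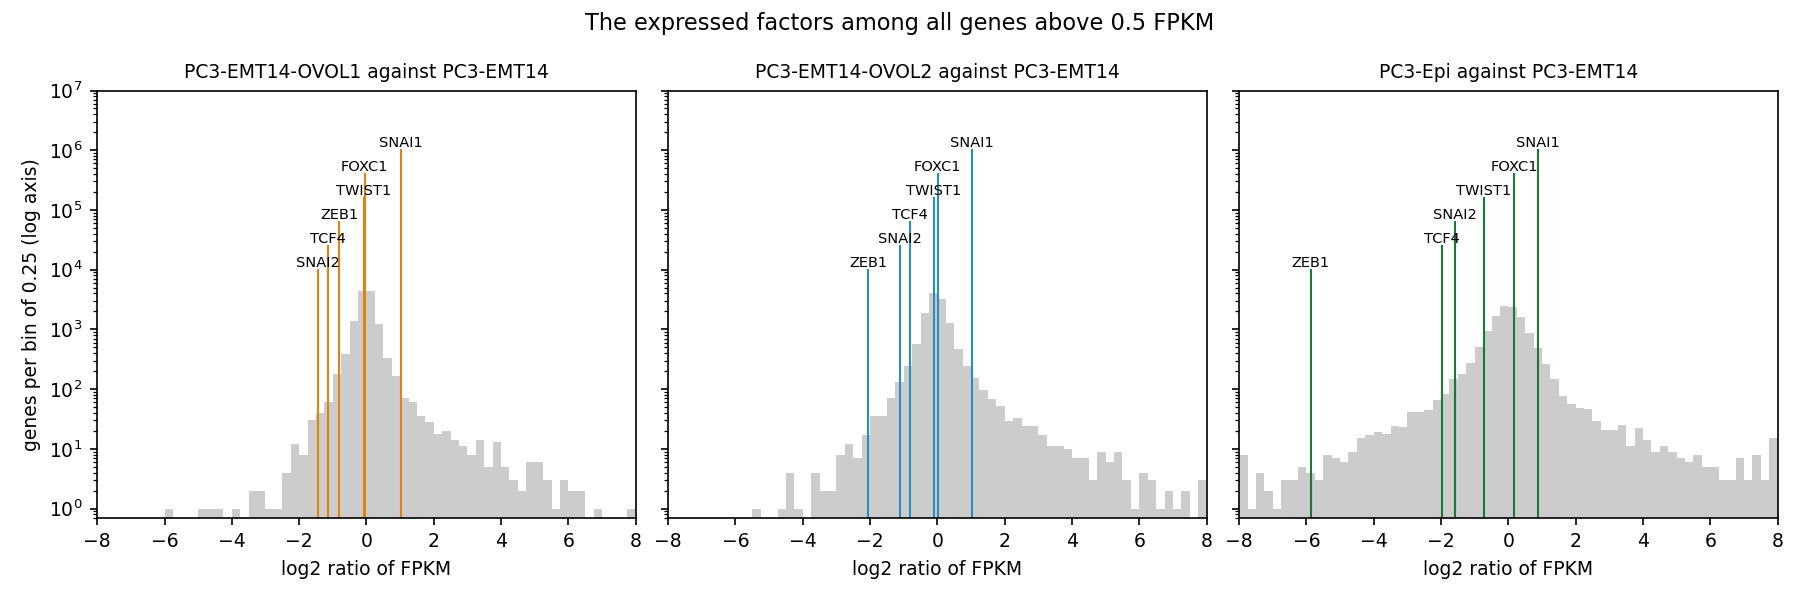
Number of genes per bin of 0.25 (y axis, log scale) against the log2 ratio of FPKM (x axis) for genes with a mean of at least 0.5 FPKM in the 3 comparisons with PC3-EMT14; the end bins also hold larger ratios, genes at 0 in a line are left out, and the heights of the coloured lines carry no value. TWIST1 and FOXC1 sit in the central mass in both OVOL panels, SNAI2 and TCF4 on the left shoulder, and SNAI1 on the right.

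The genes beside each factor were read in the same way, to see whether they differed alongside it. Of the genes within 1 Mb of ZEB1, 8 were above the floor and 0 were past 2-fold in any of the 4 comparisons, where 3.32% (between the OVOL lines) to 15.7% (PC3-Epi) of all genes were, so this count is near that background. They had median log2 ratios of 0.00, -0.05 and -0.02 in the OVOL1, OVOL2 and PC3-Epi tables. The closest is LOC220930 (ZEB1-AS1 by its gene ID), an antisense transcript whose locus ends 0.077 kb before that of ZEB1 begins. It was at 1.21 FPKM in PC3-EMT14, 1.23 in the OVOL1 line, 1.31 in the OVOL2 line and 0.788 in PC3-Epi. Its log2 ratio in PC3-Epi was -0.65, beside -5.87 for ZEB1. Whether counting used strand is not given in the sources used here, so reads where the transcripts may overlap cannot be assigned with certainty.

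Around SNAI1, 21 genes were above the floor and the median log2 ratios were -0.02, -0.01 and 0.08. CEBPB, 202 kb away, was at 14.2 FPKM in PC3-EMT14, 23.9 in the OVOL1 line, 31.8 in the OVOL2 line and 32.1 in PC3-Epi, so it was higher in the same 3 lines as SNAI1, while RNF114 at 29.1 kb was at 50.6 to 53.7 FPKM in all 4. Around TCF4, CCDC68 had a log2 ratio of 1.10 and RAB27B of 0.79 with OVOL2, opposite in sign to TCF4. FOXC1 lies 296 kb from its forkhead relative FOXQ1, which was at 0.780 FPKM in PC3-EMT14, 1.45 in the OVOL1 line, 1.89 in the OVOL2 line and 10.8 in PC3-Epi, a log2 ratio of 3.77 in PC3-Epi beside 0.18 for FOXC1. Near SNAI2, only 3 genes were above the floor, and MCM4 was higher in PC3-Epi with a log2 ratio of 1.88. CEBPB, RNF114, CCDC68, RAB27B and MCM4 were picked out after their values were seen.

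**Figure D5:**
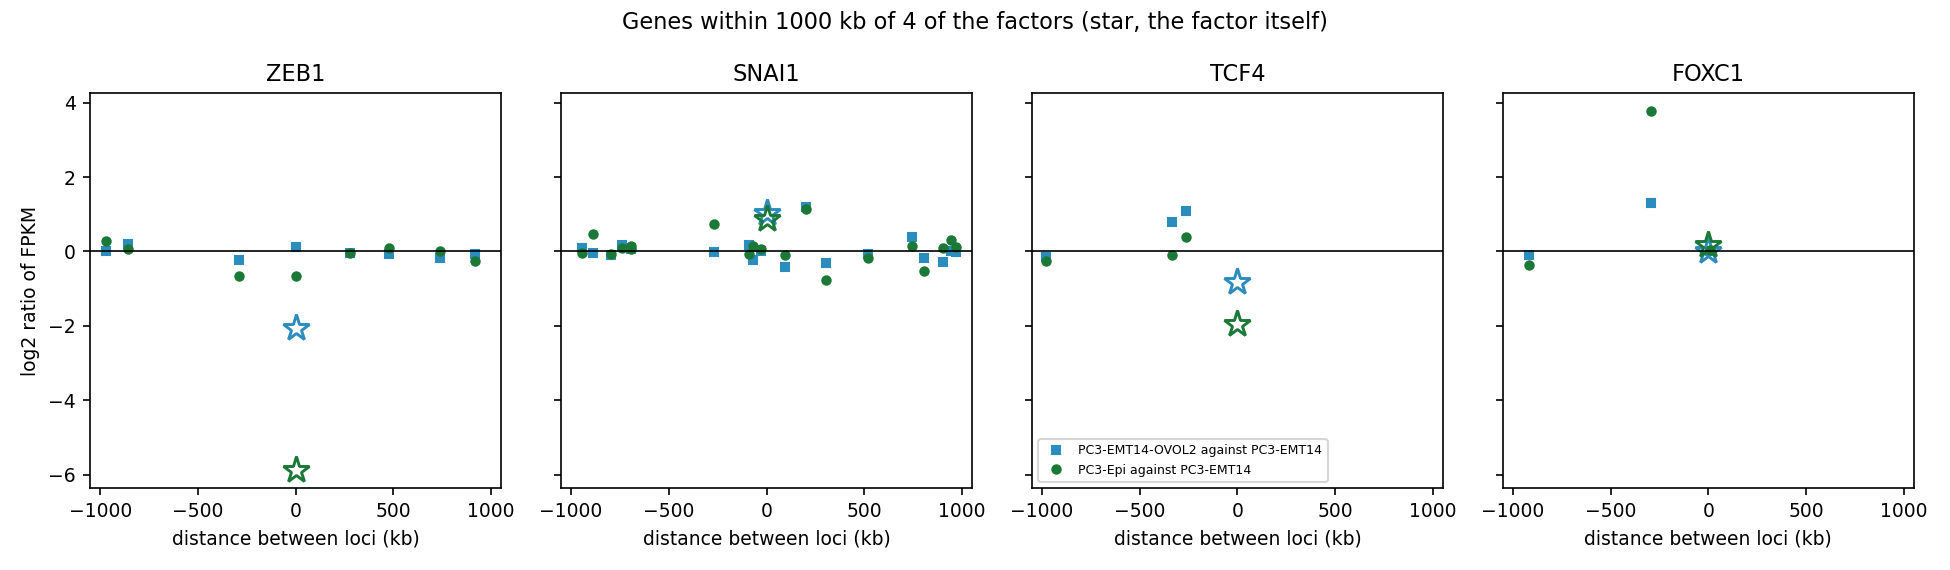
Log2 ratio of FPKM (y axis) of the genes above 0.5 FPKM within 1000 kb of ZEB1, SNAI1, TCF4 and FOXC1 against the distance between the loci (x axis, kb, negative at lower coordinates), for the OVOL2 line (squares) and PC3-Epi (circles) against PC3-EMT14; open stars are the factors. The ZEB1 stars lie far below every neighbour, and FOXQ1 lies far above FOXC1.

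Other factors and partners give the setting in which the 10 worked, by lists drawn up from their known roles. Of 15 relatives and other EMT factors, 10 were above the floor. TBX2, a T-box repressor, was at 5.27 FPKM in PC3-EMT14, 1.63 in the OVOL1 line, 1.97 in the OVOL2 line and 0.300 in PC3-Epi, lower past 2-fold in all 3. SNAI3, another Snail gene, was at 0.307, 0.450, 0.664 and 0.830 FPKM, so it was higher in the same lines as SNAI1, past 2-fold in the OVOL2 line and PC3-Epi. SOX4 was at 18.0 FPKM in PC3-EMT14 and 7.32 in the OVOL1 line, a log2 ratio of -1.28, but at 17.2 in PC3-Epi. With OVOL1, 2 of the 10 were lower (1.61% of all genes) and 0 higher (2.93%). With OVOL2, 1 was lower (2.89%) and 2 higher (4.8%), of which SNAI3 has a mean under 0.5 FPKM in the lines compared. In PC3-Epi, 1 was lower (8.62%) and 2 higher (7.11%). The medians were -0.12, 0.05 and 0.21 against -0.00, -0.04 and -0.02 over all genes.

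E-proteins and ID proteins set which bHLH dimers can form, since ID proteins bind E-proteins without contacting DNA. The E-proteins TCF3 (18.0 to 24.7 FPKM over the lines) and TCF12 (6.13 to 9.59) were above TCF4 in every line and within 2-fold in all comparisons. ID2 was at 7.81 FPKM in PC3-EMT14, 3.47 in the OVOL1 line, 4.59 in the OVOL2 line and 2.36 in PC3-Epi, the same order as TCF4. ID3 was at 5.84, 2.36, 5.18 and 4.28 FPKM, so it was lower past 2-fold with OVOL1 and higher in the OVOL2 line than in the OVOL1 line, with a log2 ratio of 1.14. ID1 was the most abundant at 71.6 to 140 FPKM, with a log2 ratio of 0.98 between the OVOL lines, and ID4 was at 0.193 FPKM or less. Of the 5 genes of this list above the floor, 2 were lower under OVOL1 (1.61% of all genes), 0 under OVOL2 (2.89%) and 1 in PC3-Epi (8.62%), and 0 were higher in those 3 comparisons.

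Of 16 corepressors and chromatin partners that these factors recruit, all above the floor, 0 were past 2-fold with OVOL1 (4.54% of all genes in either direction) or OVOL2 (7.69%), and 1, WTIP, was lower in PC3-Epi (15.7%). In the OVOL lines these counts are near the background. CTBP1, which ZEB proteins bind, was at 36.4 to 37.7 FPKM in all lines and CTBP2 at 23.8 to 26.9. The list for the turnover of SNAI and ZEB proteins held 8 genes, such as the F-box gene FBXL14 and the kinase GSK3B. Of these, 0 were past 2-fold in any comparison, against 3.32% to 15.7% of all genes. For so few genes this is also near the background. Among 10 upstream signalling genes above the floor, TGFB2 alone was past 2-fold: this ligand that can induce EMT was at 1.10 FPKM in PC3-EMT14, 3.42 in the OVOL1 line, 10.3 in the OVOL2 line and 24.9 in PC3-Epi. STAT3, a signal transducer, was at 0.0181 FPKM or less in every line.

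Many, not all, of the genes that ZEB and SNAI proteins are known to repress were higher in the OVOL lines and in PC3-Epi. Of 16 epithelial targets, 9 were higher past 2-fold under OVOL1 (2.93% of all genes), 13 under OVOL2 (4.8%) and 14 in PC3-Epi (7.11%), and 0 were lower, with median log2 ratios of 1.13, 1.85 and 2.49. RAB25 and GRHL2, an epithelial transcription factor, passed the floor only through PC3-Epi, and with the floor set on the mean of the lines compared, 8 of 14 were higher with OVOL1 (2.48%) and 11 of 14 with OVOL2 (4.54%). The claudin genes CLDN3 and CLDN4 stayed within 2-fold in all 3 comparisons, and the mucin gene MUC1 had a log2 ratio of -0.59 with OVOL1; GRHL2 and these 3 genes were picked out after their values were seen. CDH1, the gene of E-cadherin, was at 0.985 FPKM in PC3-EMT14, 16.1 in the OVOL1 line, 39.2 in the OVOL2 line and 50.6 in PC3-Epi. CRB3, a polarity gene, was at 0.533, 16.0, 41.5 and 49.1 FPKM. In the OVOL1 table CDH1 was 16.5-fold higher, while ZEB1 was at 4.25 FPKM against 7.43 in PC3-EMT14. A link between these differences was not tested. RAB25, a trafficking gene, was at 0.0556, 0.108, 0.122 and 24.2 FPKM, so only its PC3-Epi level was above the floor.

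Mesenchymal targets were less uniform. Of 15 above the floor, 0 were past 2-fold with OVOL1 (4.54% of all genes), which is near the background. With OVOL2, 4 were lower (2.89%) and 1 higher (4.8%), and in PC3-Epi 7 were lower (8.62%) and 1 higher (7.11%). The median log2 ratios were -0.49, -0.55 and -0.99, against -0.00, -0.04 and -0.02 over all genes, so the list as a whole lay lower also with OVOL1. VIM, which encodes vimentin, was at 266, 182, 76.9 and 42.5 FPKM in PC3-EMT14, the OVOL1 line, the OVOL2 line and PC3-Epi, the same order as ZEB1. CDH11, a mesenchymal cadherin, was at 74.9, 49.3, 50.4 and 3.98 FPKM, so both OVOL lines stayed nearer to PC3-EMT14.

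Genes whose pattern over the 3 comparisons was nearest to that of a factor were named by the distance between their log2(FPKM + 0.1) ratios, as a description over 3 values that share PC3-EMT14. For ZEB1 the 3 nearest included FBXL7 (distance 0.54) and ALDH2 (0.56), a mitochondrial aldehyde dehydrogenase. For SNAI2 they were KLK4 (0.068), a kallikrein protease, BCHE (0.23) and NPR2 (0.36). KLK4 was at 1.08, 0.364, 0.461 and 0.306 FPKM in PC3-EMT14, the OVOL1 line, the OVOL2 line and PC3-Epi.

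For SNAI1 the nearest were RTN4R (0.20), OXCT2 (0.22) and KRT15 (0.24), a keratin of basal and stem-like epithelial cells at 28.8 FPKM in PC3-EMT14, 64.3 in the OVOL1 line, 54.3 in the OVOL2 line and 56.9 in PC3-Epi. For TCF4 they were its inhibitor ID2 (0.12), SSTR5 (0.17) and SCARA5 (0.19). TWIST1 was nearest to FBXO48, NDUFAF1 and NSF, and FOXC1 to CENPC1, RNF220 and LASP1, all at a distance of 0.034 or less. The ratios of FOXC1 are near 0, as those of a typical gene are.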

How the data were processed

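RNA-seq was done on 10 samples in 4 groups, named by the sample labels. Reads were aligned by the authors with TopHat (UCSC hg19) and groups compared in pairs with Cuffdiff, and per the submitters' processing notes FastQC, Cufflinks and Cuffdiff were used. They deposited 8 tables, a gene table (23170 rows) and an isoform table (37557 rows) for each of 4 comparisons. The deposited FPKM values were made by the authors, who combined the samples of a group, so each group has 1 value per comparison and no SD, n or depth. The authors' fold change, test statistic, p-value, q-value and call columns were not used. No per-sample column was left unused (0).

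From the FPKM values, ratios were computed within a table without a pseudocount, in Python 3.11.15 with numpy 2.4.6 and pandas 2.3.3, and plots were drawn with matplotlib 3.10.9. A gene was called at a ratio of at least 2 or at most 0.5 if its mean level over the lines was at least 0.5 FPKM. A gene at 0 in 1 group counts as past the fold and gets no ratio. The level of a line is its mean over the tables that hold it. The fold and call code was tested on simulated data. The pooled FPKM values allow no test of their own.

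All members were described. From each gene list, up to 2 genes with the largest rise and 2 with the largest fall past 2-fold could be named, together with CDH1, VIM, CTBP1, CTBP2, TCF3, TCF12 and ID1 to ID4, and for each member with a mean of at least 1 FPKM the 3 nearest genes by Euclidean distance between log2(FPKM + 0.1) ratios. The members and lists were chosen with earlier results of these data known. Some genes that these rules name are not reported here. Alternatives were pseudocounts of 0.1 and 1, floors of 0.1 and 1 FPKM or none, folds of 1.5 and 4, centring on the median of all genes, summed isoforms and line means, and, chosen after seeing the data, the floor on the mean of the lines compared. Positions of genes are on hg19, with the start counted from 1, and promoters are those of RefSeq on GRCh38.p14.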

Additional observations from a re-analysis of the deposited data

How the results depend on the processing

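Of 120 log2 ratios of the 6 expressed factors under the alternatives, 107 moved by 0.2 or less, and 12 of the 13 that moved further did so with a pseudocount of 1. The sign changed in 3, each reported at 0.014 or less in size: FOXC1 with OVOL2 (-0.008) and SNAI1 between the OVOL lines (-0.0072) with line means, and TWIST1 between the OVOL lines (0.0223) with centring. With a pseudocount of 1 the ZEB1 log2 ratio was -1.59 with OVOL2, -2.93 in PC3-Epi and -0.91 between the OVOL lines. With a pseudocount of 0.1 it was -5.07 in PC3-Epi. The number of factors past 2-fold was 3, 3, 3 and 1 in the OVOL1, OVOL2, PC3-Epi and between-OVOL comparisons. A pseudocount of 1 gave 1, 1, 3 and 0. A 4-fold threshold gave 0, 1, 1 and 0, and a 1.5-fold threshold gave 5 in PC3-Epi. With no floor on the level, which admits the 4 factors near 0, the counts were 5, 6, 7 and 3. SNAI1 with either OVOL was no longer past 2-fold with a pseudocount of 0.1, where its log2 ratio was 0.97 in both lines. With the floor on the lines compared, chosen after seeing the data, the counts were again 3, 3, 3 and 1. In all, 32 of the 44 recomputed counts lay within 1.5 times the reported ones. Leaving out a replicate could not be run, since the values are pooled. No paired analysis was possible because the deposited columns carry no replicate numbers and no result comes from a test. The unknown depth limits what can be read from ZEB2, TWIST2, PRRX1 and FOXC2.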
